A study of Saccharomyces cerevisiae with 37 samples.

Results

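The genes described here encode the cytosolic Hsp70 and Hsp110 chaperones of budding yeast and the J-protein that works with them on the ribosome. They were chosen by symbol, as the probe sets annotated to SSA1, SSA2, SSA3, SSA4, SSB1, SSB2, SSZ1, SSE1, SSE2 or ZUO1 in the platform's annotation. All 10 genes were on the array, with 11 probe sets, out of 5449 named genes and 5900 probe sets. SSB1 had a pair of probe sets, and the brighter of them, of a type that the array's naming marks as shared between related sequences, represented the gene. All 10 genes passed the filter on dim probe sets, which kept 3899 genes for testing.

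Hsp70 chaperones bind exposed hydrophobic stretches of unfolded proteins in cycles of ATP binding and hydrolysis. J-proteins deliver the substrate and stimulate hydrolysis, and Hsp110 proteins, distant relatives of Hsp70, exchange ADP for ATP and so release the substrate. In yeast, Ssa1 and Ssa2 are the abundant cytosolic Hsp70s of growing cells, Ssa3 and Ssa4 are their stress-induced relatives, and Sse1 and Sse2 are the constitutive and the stress-induced Hsp110. Ssb1 and Ssb2 are Hsp70s that bind nascent chains as they leave the ribosome, assisted by the ribosome-associated complex of the atypical Hsp70 Ssz1 and the J-protein Zuo1. Heat shock factor Hsf1 drives transcription of the heat-inducible members, whereas the SSB genes are transcribed along with the genes for ribosomal proteins in growing cells. The Ssa1 and Ssa2 genes, and likewise the Ssb1 and Ssb2 genes, are near-identical pairs, so each probe set may also bind the transcript of the partner gene, and values of the partners cannot be fully separated.

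RNA was measured on 37 arrays of 4 cultures, all of strain Y262, which has an RNA polymerase II with a mutation that makes it temperature-sensitive and was grown in YPD at 26 °C to mid-log phase. At time 0 every culture, the references included, was mixed with an equal amount of medium at 49 °C and so brought to 37 °C, a shift that was meant to stop transcription and that is also a heat shock. The 2 reference cultures had no other treatment, the oxidative stress culture had received 0.3 mM hydrogen peroxide (it is also called the peroxide culture) and the DNA damage culture 0.1% methyl methanesulfonate, an alkylating agent (it is also called the MMS culture). Pretreatment lasted 25 min with peroxide and 40 min with MMS, if the times in the labels follow the order of the agents there. Arrays were taken at 0, 5, 10, 15, 20, 30, 40, 50 and 60 min, with a technical replicate at time 0. Reference 2 ended at 30 min (7 arrays against 10 in each other culture), because the labels call its later arrays outliers.

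Each stress is thus 1 culture, and all p-values for a stress rest on the spread between the 2 reference cultures and on the variance shared across genes. The number of cultures limits the precision of these tests. Array medians of the genes tested ran from 11.2 to 13.5 on the deposited log2 scale, and the technical pair at time 0 differed by a common offset of 0.46 in reference 1 and 0.36 under oxidative stress. Values are therefore given both as deposited and relative to the median gene of the same array. The bacterial spike-in probe sets (18 for dap, phe and thr) differed least between oxidative stress and reference 1 (a mean absolute difference of 0.065 log2 over 0 to 30 min) and between DNA damage and reference 2 (0.13), with 0.20 to 0.26 for the other pairs of cultures. The 5.8S ribosomal RNA probe set lay 1.64 log2 below the array median under oxidative stress (mean of 10 arrays, -2.11 to -1.30), whereas the other culture means were 0.64 and 0.37 in references 1 and 2 and 0.068 in the MMS culture.

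The heat-inducible members were the ones that changed within the first 5 min after the shift. SSA4, SSE2 and SSA3, together with the constitutive SSA1, rose relative to the median gene in all 4 cultures, and no member fell past the threshold. The means of 4 cultures were 7.40-fold for SSA4, 3.24-fold for SSE2, 1.83-fold for SSA3 and 1.37-fold for SSA1. These 4 of 10 members were called at an adjusted p under 0.05 by limma, beside 33.3% of all genes called in either direction, 17.9% called higher and 15.4% called lower. All 4 were called higher. The share of members called in either direction was near that of all genes, and the share called higher was above it. Whether the shares differ was not tested. By size, SSA4, SSE2, SSA3 and SSA1 ranked 2, 14, 62 and 178 from the top of 3899 genes. In these bulk RNA samples a change in every cell and a larger change in part of the cells cannot be told apart.

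SSA4 encodes the most strongly heat-induced cytosolic Hsp70. In reference 1 its deposited log2 signal was 12.82 and 13.13 on the time 0 arrays, 15.48 at 5 min, 15.66 at 10 min, 15.73 at 15 min, 15.62 at 20 min, 15.44 at 30 min, 15.41 at 40 min, 15.14 at 50 min and 15.01 at 60 min. In reference 2 it was 11.74 and 11.60 at time 0 and 14.66, 14.96, 15.04, 15.07 and 15.22 at 5, 10, 15, 20 and 30 min. In both references every array after the shift lay above both arrays at time 0, and most of the difference was there at the first time point. Under oxidative stress the values were 13.04 and 13.60 at time 0, then 15.75, 15.76, 15.68, 15.77, 15.90, 15.18, 15.76 and 14.79 from 5 to 60 min. Under DNA damage they were 11.96 and 11.97 at time 0, then 14.59, 15.33, 15.27, 15.43, 15.21, 15.24, 14.96 and 14.63. The cultures thus lay apart at time 0 and came together after the shift.

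Relative to the median gene, SSA4 gained 2.46 and 3.53 log2 in references 1 and 2 between 0 and 5 min, and 2.66 and 2.90 in the peroxide and MMS cultures. The mean of 2.89 (SE 0.16, n = 4 cultures) had a limma adjusted p of 0.00031, but the call was lost with an eBayes trend in the variance (adjusted p = 0.187). As deposited, without centring, the gain was 5.68-fold, 7.93-fold, 5.39-fold and 6.14-fold in the same order of cultures. From 5 to 30 min SSA4 rose further by 0.39 log2 per 10 min relative to the median gene (SE 0.044, n = 4 cultures, limma, adjusted p = 0.0034), with culture values from 0.30 to 0.49. That later rise was not called on the deposited values, where it was 0.10 per 10 min (limma, adjusted p = 0.318) and the median gene fell. The deposited slopes differed between cultures, at -0.034 and 0.20 in references 1 and 2, 0.060 in the peroxide culture and 0.19 in the MMS culture. From 30 to 60 min the relative slopes were 0.029, 0.038 and -0.072 per 10 min in reference 1, the peroxide culture and the MMS culture.

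SSE2 encodes the heat-inducible Hsp110. Its deposited signal was 12.55 and 12.92 at time 0 and 14.44 at 5 min in reference 1, and 12.22 and 12.05 against 13.62 in reference 2. Under oxidative stress it started higher, at 13.61 and 14.03, and reached 15.01 at 5 min, and under DNA damage it went from 12.25 and 12.24 to 13.64. The arrays at time 0 and at 5 min did not overlap within any culture. The gain relative to the median gene was 1.65, 2.03, 1.42 and 1.67 log2 in references 1 and 2, the peroxide culture and the MMS culture (mean 1.70, SE 0.095, n = 4 cultures, limma, adjusted p = 0.00031).

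The culture with the highest SSE2 signal before the shift gained least. SSE2 then levelled off: its relative signal was highest at 15 or 20 min within the first 30 min in all 4 cultures, and the slope from 5 to 30 min was not called (0.16 log2 per 10 min, SE 0.080, limma, adjusted p = 0.176). Reference 2 differed here, with -0.15 per 10 min against 0.20 to 0.32 in the other cultures, and its deposited signal went from 13.74 at 20 min to 12.95 at 30 min. Without reference 2 the slope was called (0.26, limma, adjusted p = 0.0226). The 30 min array is the last of reference 2 that was used.

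SSA3, the other stress-induced cytosolic Hsp70, rose more slowly and for longer. In reference 1 its deposited signal was 11.68 and 12.09 at time 0, then 12.79, 13.43, 13.91, 14.17, 14.31, 14.46, 14.35 and 14.29 from 5 to 60 min. In reference 2 it was 11.48 and 11.35, then 11.80, 12.27, 12.72, 12.96 and 13.17 to 30 min. In both references the signal was higher at each time point than at the one before up to 30 min. Under oxidative stress it was 11.96 and 12.27, then 13.03, 13.89, 14.31, 14.61, 14.97, 14.45, 15.02 and 14.20. Under DNA damage it was 11.28 and 11.35, then 11.60, 12.33, 12.52, 12.92, 12.94, 13.05, 12.90 and 12.74. The stressed cultures showed the same continued increase to 30 min, and all arrays after time 0 lay above both time 0 arrays of their culture.

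The first 5 min brought SSA3 a relative gain of 0.86, 0.93, 1.14 and 0.56 log2 in references 1 and 2, the peroxide culture and the MMS culture (mean 0.87, SE 0.091, n = 4 cultures, limma, adjusted p = 0.0014). From 5 to 30 min its mean relative slope of 0.89 log2 per 10 min (SE 0.064, n = 4 cultures, limma, adjusted p = 0.0018) was the highest of 3899 genes, with 1.05, 0.71, 0.97 and 0.81 in the same order. In this comparison 2 of 10 members were called, both higher, beside 32.1% of all genes called, 18.4% higher and 13.7% lower. The share called higher was thus near that of all genes. SSA3 also rose over this window on the deposited values, by 0.51 to 0.73 log2 per 10 min. By 30 min the deposited signal stood 5.35-fold, 3.38-fold, 7.22-fold and 3.09-fold above time 0. From 30 to 60 min the slopes of the deposited signal were -0.015, -0.17 and -0.077 log2 per 10 min in reference 1, the peroxide culture and the MMS culture, and those relative to the median gene 0.17, 0.14 and 0.052.

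The relative SSA3 courses lay close together for reference 1 and oxidative stress and lower for reference 2 and DNA damage, at 3.61 and 3.77 against 2.81 and 2.65 log2 gained by 30 min. These are the same pairs of cultures that the spike-in values set together. The part of that pairing in the SSA3 levels was not tested. No difference between a stress and the references was called for the heat-inducible members in the slope from 0 to 30 min or in the change from 0 to 5 min.

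**Figure D1:**
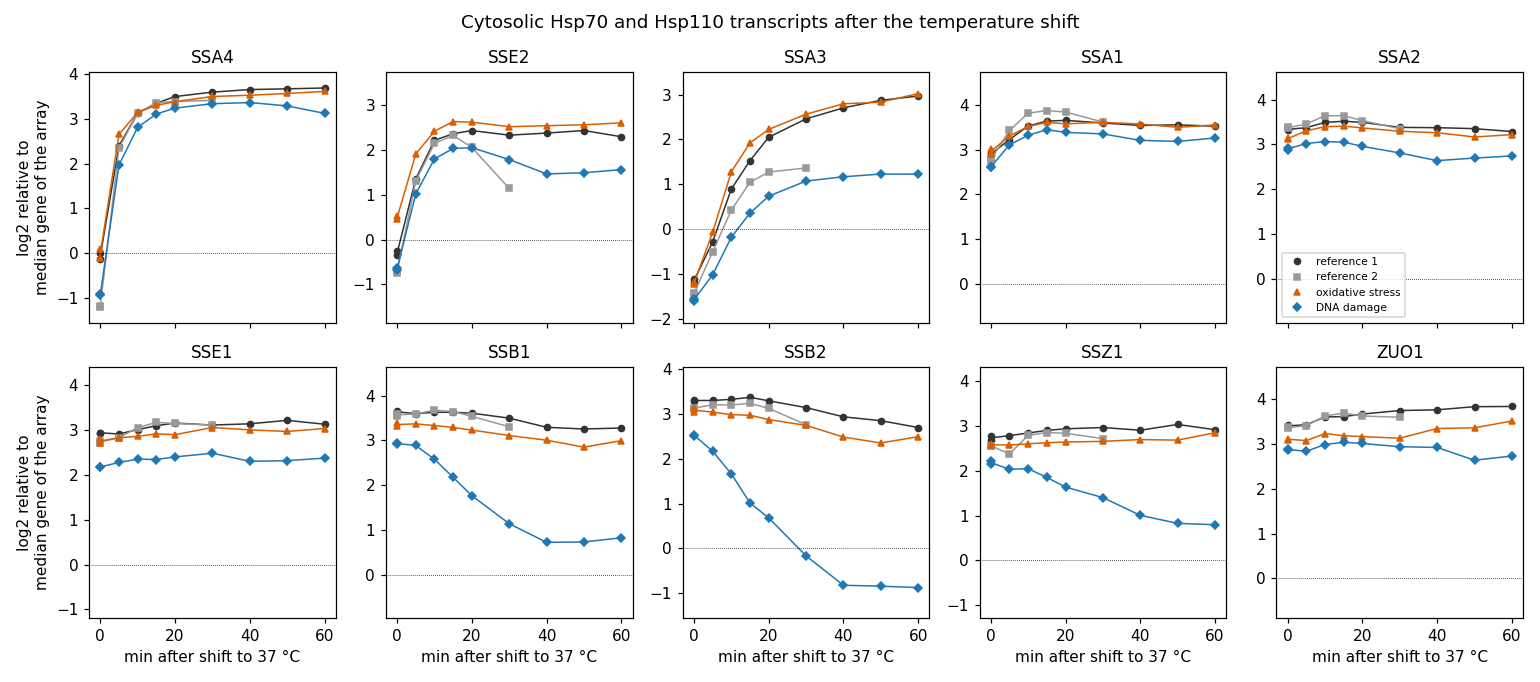
Log2 signal relative to the median gene of each array (vertical axes, all of similar span) against minutes after the shift (horizontal axes) for the 10 genes, 1 panel each. Points are arrays, with both technical arrays at time 0, and lines join the mean at each time for the 4 cultures, told apart by colour and symbol. SSA4, SSE2 and SSA3 climb from below or near the median gene, and SSB1, SSB2 and SSZ1 decline in the DNA damage culture.

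**Figure D2:**
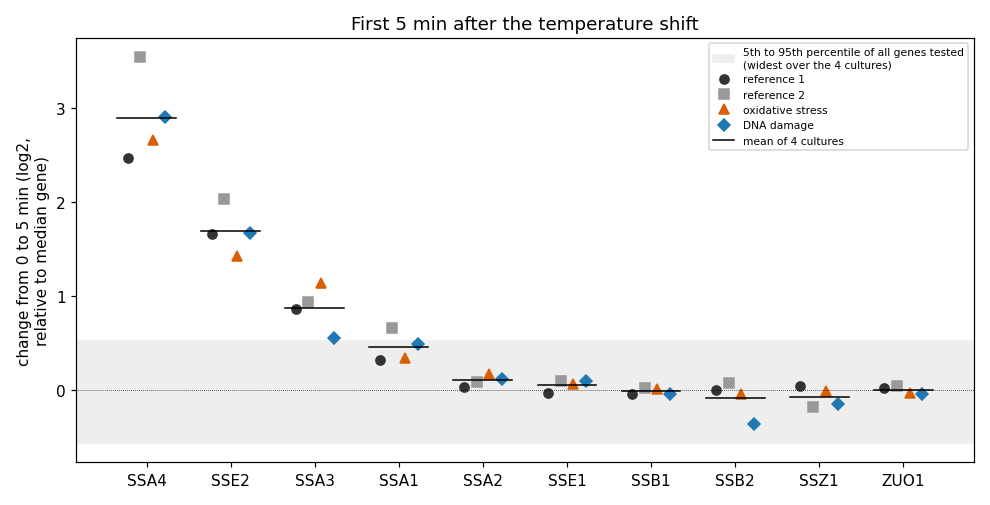
Change in log2 signal relative to the median gene from 0 to 5 min (vertical axis) for the 10 genes (horizontal axis). Each symbol is 1 culture, the line is the mean of 4 cultures and the grey band spans the 5th to 95th percentile of all genes tested at its widest over the cultures, from -0.56 to 0.53, both limits those of reference 2. SSA4, SSE2 and SSA3 lie above the band in all 4 cultures, and the remaining members lie within it except SSA1 in reference 2. SSA1 under DNA damage (0.49) also lies above the 95th percentile of its own culture (0.42).

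Of the constitutive members only SSA1 passed the test in the same window, and whether the 3 differ from each other was not tested. SSA1 encodes a constitutive cytosolic Hsp70 that is also known to respond to heat. Its deposited signal was 15.68 and 16.19 at time 0, 16.31 at 5 min and 15.44 at 30 min in reference 1, and 15.74 and 15.51, 15.74 and 15.43 in reference 2. Under oxidative stress the values at these times were 16.07 and 16.51, 16.41 and 16.02, and under DNA damage 15.50 and 15.52, 15.73 and 15.22. The deposited arrays at 0 and 5 min overlapped in reference 2 and under oxidative stress.

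Relative to the median gene SSA1 gained 0.33, 0.66, 0.34 and 0.49 log2 in references 1 and 2, the peroxide culture and the MMS culture by 5 min (mean 0.46, SE 0.067, n = 4 cultures, limma, adjusted p = 0.0038). On the deposited values the mean gain was 0.20 and was not called (limma, adjusted p = 0.258). By 30 min the relative gain was 1.57-fold to 1.80-fold in the 4 cultures while the deposited signal stood 1.15-fold to 1.41-fold below time 0. To 30 min its deposited signal thus declined less than that of the median gene. By 60 min it stood 2.12-fold, 2.95-fold and 1.67-fold below time 0 in reference 1, the peroxide culture and the MMS culture. Bacterial spike-in probe sets (24 with lys included) fell as well from 0 to 30 min. Their median deposited slopes were -0.12, -0.15, -0.11 and -0.093 log2 per 10 min in references 1 and 2 and the peroxide and MMS cultures. The median slopes of the genes tested were -0.39, -0.36, -0.32 and -0.34.

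SSA2, the near-identical constitutive partner of SSA1, gained 0.039, 0.088, 0.18 and 0.12 log2 in 5 min, above 0 in all 4 cultures but not called (mean 0.11, SE 0.047, limma, adjusted p = 0.125). Over 0 to 10 min the mean gain of 0.22 was called (limma, adjusted p = 0.0338), beside 1102 of 3899 genes called higher and 753 lower. SSE1, the constitutive Hsp110, gained -0.029, 0.097, 0.073 and 0.10 (mean 0.061, SE 0.047, limma, adjusted p = 0.357). From 5 to 30 min the mean relative slopes of SSA1, SSA2 and SSE1 were 0.087, -0.046 and 0.085 log2 per 10 min, none of them called. By 30 min the deposited signal of SSA2 stood 1.69-fold to 2.21-fold below time 0 and that of SSE1 1.54-fold to 2.02-fold below. The decline of SSA2 was close to that of the median gene, with relative changes by 30 min from -0.089 to 0.17 log2. SSE1 declined less than the median gene in all 4 cultures, with relative changes from 0.17 to 0.38.

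The ribosome-associated members showed no called change in the first 5 min over the 4 cultures. The mean relative changes were -0.011 log2 for SSB1, -0.081 for SSB2, -0.071 for SSZ1 and 0.00029 for ZUO1 (limma, adjusted p from 0.367 to 0.996). On the probe set that represents each gene, their relative slopes from 0 to 30 min in the references and under oxidative stress ran from -0.11 log2 per 10 min (SSB2, oxidative stress) to 0.12 (ZUO1, reference 1). The other probe set of SSB1 reached -0.18 under oxidative stress.

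In the DNA damage culture SSB1 and SSB2, the nascent chain-binding Hsp70s, had much lower slopes than in the other cultures. The deposited signal of SSB2 under DNA damage was 15.40 and 15.45 at time 0, then 14.79, 14.18, 13.18, 12.87, 11.71, 11.06, 10.83 and 10.64 from 5 to 60 min. In reference 1 it was 16.10 and 16.57, then 16.39, 15.87, 15.76, 15.42, 14.99, 14.70, 14.33 and 14.02, and in reference 2 16.04 and 15.94, then 15.52, 15.05, 14.92, 14.81 and 14.57. Under oxidative stress it was 16.20 and 16.64, then 16.15, 15.60, 15.36, 15.26, 15.15, 14.14, 14.55 and 13.67. From time 0 onwards every DNA damage array lay below the arrays of the other 3 cultures at the same time, and the gap was wider at 30 min than at time 0. By 30 min the deposited SSB2 signal stood 13.1-fold below time 0 under DNA damage, against 2.54-fold, 2.67-fold and 2.40-fold in reference 1, reference 2 and oxidative stress.

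Relative to the median gene the SSB2 slope from 0 to 30 min was -0.92 log2 per 10 min under DNA damage (SE 0.031 over 7 arrays). It was -0.038 (SE 0.023) and -0.096 (SE 0.049) in references 1 and 2 and -0.11 (SE 0.013) in the peroxide culture. The difference from the reference mean was -0.85 (SE 0.061), the 10th lowest of 3899 genes. It did not pass the threshold (limma, adjusted p = 0.144), and neither did any other gene: 0 of 3899 genes were called in this comparison, so 0% is the background, with 918 genes at an unadjusted p under 0.05. The SSB2 difference was called on the deposited values (-0.79, limma, adjusted p = 0.0345), without the filter (-0.83, limma, adjusted p = 0.0412), with an eBayes trend (limma, adjusted p = 0.032) and over 0 to 20 min (-0.97, limma, adjusted p = 0.0132), beside 30, 22, 173 and 483 genes called in all under these settings.

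SSB1 gave the same picture on both of its probe sets. On the shared probe set the relative slope was -0.61 log2 per 10 min under DNA damage (SE 0.046 over 7 arrays), and -0.036, -0.071 and -0.080 in both references and the peroxide culture. On the other probe set it was -1.0 (SE 0.078), against -0.076, -0.13 and -0.18. The probe sets thus ranked the cultures alike, and the shared one gave the smaller difference. For the gene, the difference from the references was -0.56 (SE 0.057, limma, adjusted p = 0.144), the 55th lowest, and -0.73 with the mean of both probe sets (limma, adjusted p = 0.145). By 30 min the deposited signal under DNA damage stood 7.03-fold below time 0 on the shared probe set and 14.8-fold below on the other, against 2.25-fold to 2.51-fold and 2.75-fold to 2.91-fold in the other 3 cultures.

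SSZ1 and ZUO1 are the genes of the ribosome-associated complex. SSZ1 encodes the atypical Hsp70 of the complex. Its deposited signal under DNA damage was 15.03 and 15.13 at time 0, then 14.65, 14.57, 14.01, 13.82, 13.27, 12.89, 12.50 and 12.31, a 3.49-fold lower signal by 30 min against 1.80-fold to 1.94-fold in the other cultures. Its relative slope was -0.26 log2 per 10 min (SE 0.024 over 7 arrays), and 0.084, 0.099 and 0.028 in both references and the peroxide culture. It was thus below 0 in this culture and above 0 in the other 3. The difference from the references was -0.35 (SE 0.055, limma, adjusted p = 0.144).

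ZUO1 encodes the J-protein partner. Its deposited signal under DNA damage went from 15.78 and 15.77 at time 0 to 14.81 at 30 min, 1.95-fold lower, beside 1.80-fold, 1.76-fold and 1.87-fold in reference 1, reference 2 and oxidative stress. Its relative slope of 0.041 (SE 0.026) lay between those of oxidative stress (0.016) and the references (0.12 and 0.096), and the difference from the references was -0.068 (SE 0.056, limma, adjusted p = 0.501). Whether the slopes of SSZ1 and ZUO1 differ from each other was not tested. After 30 min the relative slope of SSZ1 stayed below 0 under DNA damage, at -0.20 log2 per 10 min to 60 min (SE 0.058), and those of SSB1, SSB2 and ZUO1 were -0.093, -0.22 and -0.091.

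The constitutive cytosolic members had slopes under DNA damage close to those of the references. SSA1 had 0.26 log2 per 10 min against 0.26 and 0.31 in references 1 and 2, SSA2 -0.022 against 0.033 and 0.014, and SSE1 0.10 against 0.078 and 0.15. Their differences of -0.027, -0.045 and -0.014 had SEs of 0.055 to 0.065 (limma, adjusted p from 0.654 to 0.910).

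For oxidative stress, no member's slope differed past the threshold from that of the references or the DNA damage culture. Between oxidative stress and the references 0 of 10 members and 0% of genes were called (350 at an unadjusted p under 0.05), and the members' differences ran from -0.23 (SSA4) to 0.19 (SSA3) log2 per 10 min. Between oxidative stress and DNA damage 0 of 10 members and 0% of genes were called as well (926 at an unadjusted p under 0.05). The differences of SSB2 (0.81, SE 0.071) and SSB1 (0.53, SE 0.066) were the 10th and 73rd highest of all genes (limma, adjusted p = 0.144 for both).

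**Figure D3:**
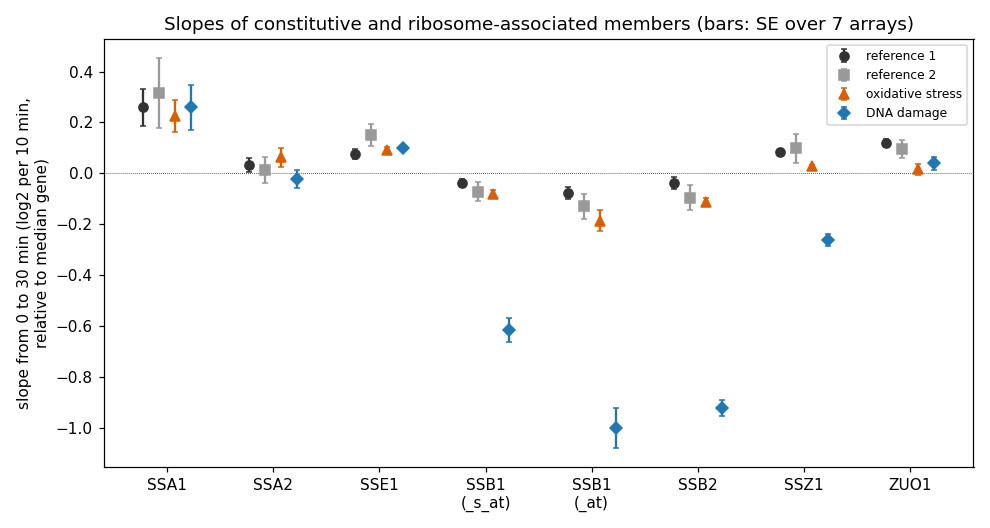
Slope of log2 signal relative to the median gene from 0 to 30 min (vertical axis, log2 per 10 min) for the constitutive and ribosome-associated members, with SSB1 shown by both of its probe sets (horizontal axis). Points are cultures and bars are the SE over 7 arrays. The DNA damage points of SSB1, SSB2 and SSZ1 lie from -1.0 to -0.26, below the other 3 cultures, whereas those of SSA1, SSA2, SSE1 and ZUO1 lie among or near them.

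The first 5 min already held part of the SSB2 difference. Its relative change under DNA damage was -0.36 log2 against 0.00085 and 0.076 in references 1 and 2, a difference of -0.40 (SE 0.12) that was not called (limma, adjusted p = 0.432). Over 0 to 10 min the difference was -0.91 and was called (limma, adjusted p = 0.0159), beside 312 of 3899 genes. In the change from 0 to 5 min, 0 of 10 members and 0% of genes were called for either stress against the references, with 232 genes at an unadjusted p under 0.05 for oxidative stress and 411 for DNA damage. For SSB1 the change under DNA damage was -0.044 against -0.039 and 0.023, and for SSZ1 -0.15 against 0.050 and -0.18.

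Before the shift no member differed from the references past the threshold in either stress. Under oxidative stress 0 of 10 members were called beside 3.8% of all genes. SSE2 came closest, with relative levels of 0.45 and 0.53 on the technical arrays, against -0.25 and -0.35 in reference 1 and -0.69 and -0.75 in reference 2. All arrays of the stressed culture lay above all arrays of the references, by 2.00-fold on average (1.00 log2, SE 0.25, limma, adjusted p = 0.0942). This difference was called on the deposited values (1.38, limma, adjusted p = 7.1e-05), without the filter (1.03, limma, adjusted p = 0.0241) and with an eBayes trend (limma, adjusted p = 0.0164). On the deposited values the median of all genes moved from -0.090 to 0.29, and 488 genes were called against 148. The SSE2 difference was not called after quantile normalization, with a stricter filter or with either technical array left out. It was 0.79 against reference 1 alone and 1.21 against reference 2 alone.

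The SSA4 level at time 0 differed between the untreated references themselves. It was 0.01 and -0.14 relative to the median gene in reference 1 and -1.18 and -1.19 in reference 2, a 2.18-fold gap that was the 38th widest of 3899 genes. The stressed cultures lay beside one reference each, at -0.11 and 0.10 in the peroxide culture and -0.92 and -0.94 in the MMS culture. The difference of 0.62 between oxidative stress and the reference mean (SE 0.43, limma, adjusted p = 0.569) was 0.055 against reference 1 alone and 1.18 against reference 2 alone. The corresponding values for DNA damage were -0.86 and 0.26, so the direction depended on the reference. SSA3, by contrast, had levels of -1.15, -1.44, -1.21 and -1.58 in references 1 and 2, the peroxide culture and the MMS culture, a smaller spread.

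**Figure D4:**
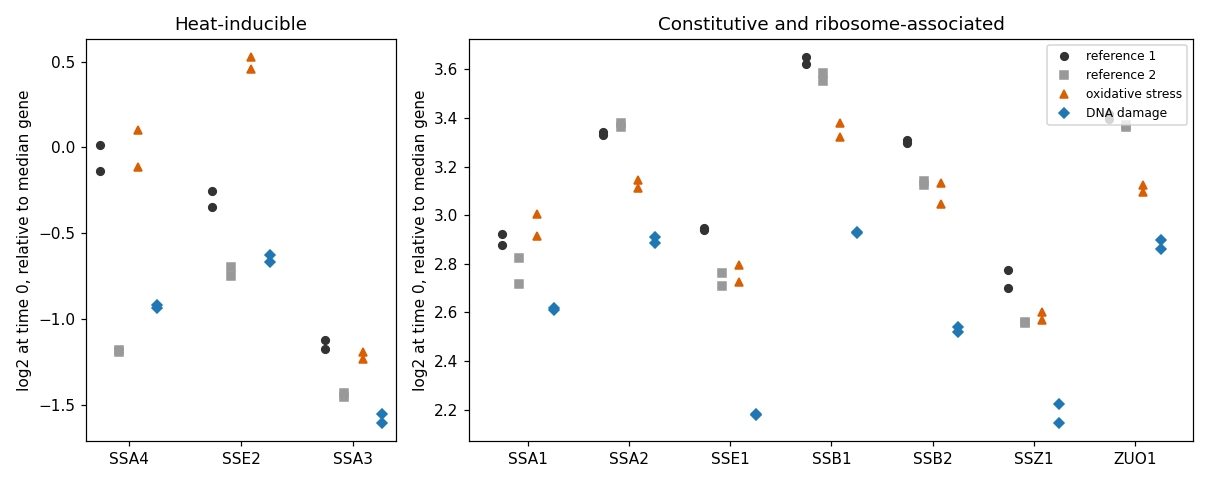
Log2 signal at time 0 relative to the median gene of the array (vertical axes, different ranges) for the heat-inducible members (left) and the other members (right). Each point is 1 of the 2 technical arrays of a culture. SSE2 is highest under oxidative stress, SSA4 splits the references, and the DNA damage points are the lowest for each gene on the right.

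In the DNA damage culture all 10 members lay below the reference mean at time 0 relative to the median gene, as did 2357 of all 3899 genes. After quantile normalization 8 of 10 members lay below, with SSA1 and SSA2 above. In the reported setting 0 of 10 were called beside 1.82% of all genes. The lowest differences were those of SSB2 (-0.69, SE 0.21), SSB1 (-0.67, SE 0.20) and SSE1 (-0.66, SE 0.21), each about 1.6-fold lower with a limma adjusted p of 0.197 to 0.215. After quantile normalization they were -0.24, -0.20 and -0.31, so their size depended on the scaling. ZUO1 (-0.51), SSZ1 (-0.46) and SSA2 (-0.45) followed. The technical arrays of the damaged culture lay below all 4 reference arrays for each constitutive and each ribosome-associated member. The share of all genes separated in this way was not counted. For SSE1, for example, the arrays of the damaged culture were 2.18 and 2.18, against 2.95 and 2.94 in reference 1 and 2.76 and 2.71 in reference 2.

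The median difference was -0.59 log2 over the 4 ribosome-associated members, -0.45 over the 3 constitutive members, -0.48 over 127 cytosolic ribosomal protein genes and -0.096 over all genes tested. After quantile normalization it was -0.16 over the ribosome-associated members, 0.012 over the constitutive members and -0.020 over the ribosomal protein genes. With an eBayes trend in the variance, 6 members were called lower (SSA2, SSB1, SSB2, SSZ1, SSE1 and ZUO1), beside 505 genes in all, 358 of them lower. Of the 127 ribosomal protein genes 105 were called lower in that setting. Under oxidative stress the ribosome-associated members had a median of -0.19 and the ribosomal protein genes of -0.16. Between oxidative stress and DNA damage all 10 members, and 2200 of all 3899 genes, lay higher under oxidative stress. The members' differences ran from 0.23 (SSA2) to 1.14 (SSE2) log2, and 0 of 10 were called beside 0.103% of all genes. After quantile normalization SSA1 (-0.025), SSA2 (-0.11) and ZUO1 (-0.11) lay lower under oxidative stress, and the other 7 higher. These comparisons share the reference cultures or a stressed culture and are not independent of each other.

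The other genes of the pathway were followed as lists of Hsp70 partners, nascent chain partners, other targets of Hsf1 and cytosolic ribosomal protein genes. Of 18 other Hsf1 targets, all on the array and tested, 14 rose in the first 5 min and 0 fell, beside 17.9% and 15.4% of all genes, with a median of 0.74 log2 against 0.012 over all genes. On the deposited values, where the median of all genes was -0.24, 11 rose and 0 fell, beside 110 and 1060 of all 3899 genes. HSP26, a small heat shock protein, gained 3.43 log2 (3.08, 3.81, 2.81 and 4.04 in references 1 and 2, the peroxide culture and the MMS culture, limma, adjusted p = 0.00031). BTN2, which sorts misfolded proteins into deposits, gained 1.75, and HSP78, a mitochondrial disaggregase, gained 1.59. BTN2 varied between the references, at 0.74 and 3.20. From 5 to 30 min 7 of the 18 rose further relative to the median gene, beside 18.4% of all genes. HSP26 rose by 0.44 log2 per 10 min, the ubiquitin gene UBI4 by 0.36 and the Hsp90 co-chaperone CPR6 by 0.28. On the deposited values 0 of the 18 rose and 8 fell over this window, beside 31 and 2562 of all 3899 genes.

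Among the Hsp70 partners 12 of 15 genes were tested, the J-protein genes JJJ1, JJJ2 and JJJ3 being too dim. In the first 5 min 6 rose and 2 fell relative to the median gene (2 and 4 on the deposited values), beside 17.9% of all genes called higher and 15.4% lower (110 and 1060 of 3899 on the deposited values). APJ1, a J-protein that helps dissolve aggregates, gained 0.82 log2 on average but -0.045 in reference 1. FES1, a nucleotide exchange factor, gained 0.75 and SIS1, the essential J-protein partner of Ssa, gained 0.58, both in all 4 cultures. The 2 that fell, named after their values were seen, were the J-protein genes DJP1 (-0.46) and XDJ1 (-0.27). From 5 to 30 min HSF1, the gene of the heat shock factor itself, and STI1, a co-chaperone that links Hsp70 to Hsp90, rose by 0.28 and 0.23 log2 per 10 min relative to the median gene and were likewise named after their values were seen. The 3 that fell were CNS1, a co-chaperone of Hsp70 and Hsp90 (-0.70 log2 per 10 min), SNL1, a membrane-bound exchange factor (-0.55), and APJ1 (-0.30). Of all genes 18.4% were called higher and 13.7% lower over this window, and the list's 2 and 3 of 12 are not far from these shares. On the deposited values 0 of the 12 rose and 10 fell, beside 31 and 2562 of all 3899 genes.

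The nascent chain partners comprised the nascent polypeptide-associated complex, N-terminal acetyltransferase subunits and a methionine aminopeptidase. Of 7 genes 6 were tested, BTT1 being too dim. In the first 5 min 0 of 6 passed the test, as for the ribosome-associated chaperones, beside the 1760 genes of all at an unadjusted p under 0.05 and the 1298 called. NAT5 had the largest mean, 0.22 log2 (limma, adjusted p = 0.149). From 5 to 30 min 1 of 6 fell, the acetyltransferase subunit gene ARD1 (-0.31 log2 per 10 min, limma, adjusted p = 0.0251), a share near the 13.7% of all genes called lower.

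Ribosomal protein genes showed slopes in the DNA damage culture of the kind seen for SSB1 and SSB2. The references had median relative slopes of 0.026 and 0.029 log2 per 10 min for this list from 0 to 30 min, the peroxide culture -0.019 and the MMS culture -0.30. The median difference between DNA damage and the references was -0.32 (from -0.92 to 0.20), and 125 of 127 genes lay below 0, against a median of -0.023 over all genes. In the reported setting 0 of the 127 were called, beside 0% of all genes. With an eBayes trend 63 were called lower, beside 153 of all 3899 genes, and on the deposited values 19 were, beside 30. Below 0 lay 116 of the 127 on the deposited values and 122 after quantile normalization, with 0 called after the latter. SSB2 sat at the low end of that range, with 6 of the 127 lower. SSB1, on its shared probe set, had 23 lower and SSZ1 had 51 lower. The other SSB1 probe set, which had a lower slope under DNA damage (-1.0 against -0.61), was not ranked. The difference of ZUO1 was -0.068. RPL27B had the largest difference of the list, -0.92 (limma, adjusted p = 0.144). For the nascent chain partners the median difference was -0.090, and for the Hsp70 partners 0.026, with 0 genes of either list called. Between oxidative stress and the references 127 of 127 ribosomal protein genes also lay below 0, with a smaller median of -0.051 and 0 called. The 4 ribosome-associated members lay below 0 there as well (median -0.053), against -0.00078 over all genes. On the deposited values 52 of the 127 lay below 0 and 75 above, and 2 of these members lay on each side.

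**Figure D5:**
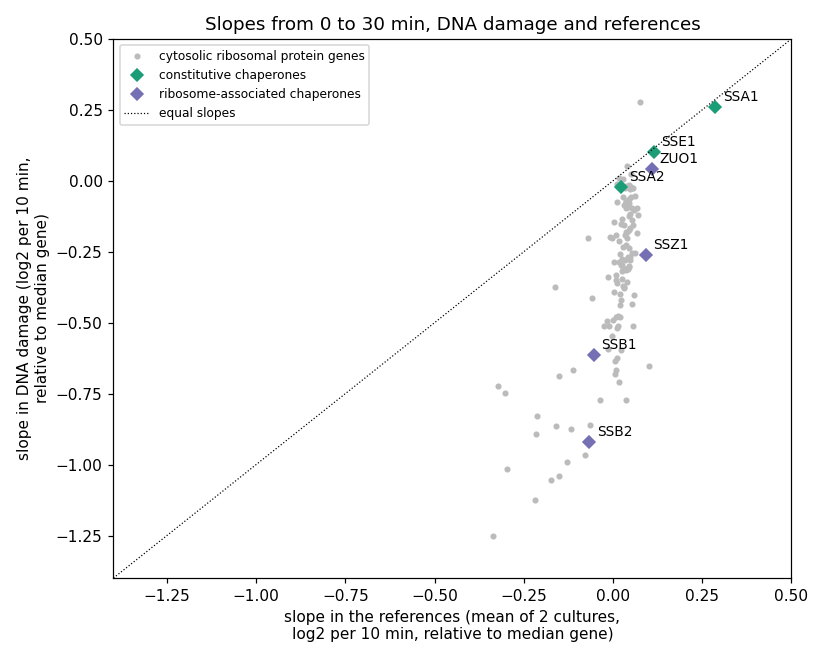
Slope from 0 to 30 min relative to the median gene (log2 per 10 min) in the DNA damage culture (vertical axis) against the mean of the 2 reference cultures (horizontal axis). Grey points are 127 cytosolic ribosomal protein genes, diamonds are the constitutive and ribosome-associated chaperones, and the dotted line marks equal slopes. SSB1, SSB2 and SSZ1 lie below the line, SSZ1 at the right-hand edge of the grey points, and SSA1, SSA2, SSE1 and ZUO1 lie near the line.

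Correlations of the members' relative signals over the 37 arrays crossed the subgroups in several places. These correlations describe arrays that share cultures and time points and carry no p. SSA4 and SSE2 had a Pearson correlation of 0.95, SSA1 correlated with SSE2 at 0.91 and with SSA4 at 0.90, and SSA1 with its near-identical partner SSA2 at 0.50. SSA2 correlated with SSB1 at 0.88, SSZ1 at 0.87, SSB2 at 0.86 and SSE1 at 0.85. SSB1 and SSB2 correlated at 0.996, SSZ1 with SSB2 at 0.94, and ZUO1 with SSZ1 at 0.82 but with SSE1 at 0.89. SSA4 and SSB2 correlated at -0.24.

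Among all 3899 genes tested, the patterns most like SSA4 were those of the small heat shock gene HSP26 (Pearson r = 0.994), the cell wall protein gene SPI1 (0.978) and the aldose reductase gene GRE3 (0.977). The patterns most like SSB1 were those of SSB2 (0.996) and the ribosomal protein genes RPS7A and RPS6B (both 0.995). SSA2 was nearest to PCM1 (0.953), an enzyme gene of chitin precursor synthesis, TMA19 (0.944), a ribosome-associated protein gene, and the ribosomal protein gene RPS8A (0.938), each over 37 arrays.

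The constitutive and ribosome-associated probe sets sat near the top of the array's scale at time 0. The deposited signal of both SSB1 probe sets reached 16.9 there, and each array's highest probe set lay between 16.5 and 17.5. On the arrays at time 0 between 17 and 361 of 5900 probe sets were brighter than a given probe set of these 7 genes, against at least 1514 for those of SSA3, SSA4 and SSE2. Any flattening of bright signals at time 0 was not tested.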

How the data were processed

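Labelled RNA was made from cDNA primed with poly(T), per the labels' protocols. The probe-set values deposited by the authors are on a log2 scale and come from RMA, according to the submitters' processing notes. Its version and the set of arrays normalized with each other are not given in the sources. The values are not scaled alike between arrays, so each array was centred on the median of the genes tested. Probe sets were named by the platform's annotation (5498 with 1 gene, 402 unnamed, 0 with several), and the brightest probe set represented a gene. Genes above the 30th percentile of probe-set means (11.0 log2) were tested with limma 3.58.1 in R 4.3.3, with 1 value per gene and culture (technical arrays averaged), Benjamini-Hochberg adjustment over all 3899 genes and a threshold of 0.05. Slopes are least squares over 0 to 30 or 5 to 30 min. Stress effects were set against the reference cultures, and shared changes against 0, the median gene. The procedure was tested on simulated data drawn with independent cultures from its own variance model, so likeness between particular cultures was not covered. Members and lists were chosen with earlier results of these data known. Named genes are the members, then up to 3 called genes of each list with the largest difference, else the largest, and the 3 nearest patterns of SSA4, SSA2 and SSB1. Alternatives were no centring, quantile normalization, other filters, the mean of probe sets, an eBayes trend, other time windows, and leaving out arrays or cultures.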

Additional observations from a re-analysis of the deposited data

Results flagged for a closer look

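For 6 results of the members the stressed culture and both reference cultures moved in opposite directions, and none of these differences passed the test. Under DNA damage the relative slope from 0 to 30 min was -0.26 log2 per 10 min for SSZ1 against 0.084 and 0.099 in references 1 and 2, a difference of -0.353 (limma, adjusted p = 0.144). For SSA2 it was -0.022 against 0.033 and 0.014, a difference of -0.0454 (limma, adjusted p = 0.654).

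In the first 5 min SSB2 changed by -0.36 log2 under DNA damage and by 0.00085 and 0.076 in the references, a difference of -0.396 (limma, adjusted p = 0.432). Under oxidative stress SSB2 changed by -0.044, a difference of -0.0818 (limma, adjusted p = 0.964). ZUO1 changed by -0.037 under DNA damage and -0.032 under oxidative stress against 0.027 and 0.043 in the references, differences of -0.0715 (limma, adjusted p = 0.875) and -0.0667 (limma, adjusted p = 0.974). Both stresses were set against the same reference cultures. The differences of ZUO1, of SSA2 and of SSB2 under oxidative stress were smaller than their SEs.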

How the results depend on the processing

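The 4 early rises were called in 4 of 4 settings that left out a culture and in both that left out a technical array. Exceptions among the other settings were SSA1 as deposited (0.20, limma, adjusted p = 0.258) and SSA4 with an eBayes trend (2.89, limma, adjusted p = 0.187). Without centring the median of all genes moved to -0.24 log2 in the early change and -0.26 per 10 min in the slope from 5 to 30 min. Genes called higher and lower then went from 699 and 599 to 110 and 1060, and from 716 and 535 to 31 and 2562. In that slope 8 members were called as deposited, with SSA1 (-0.21), SSE1 (-0.21) and ZUO1 (-0.24) reversed, because the median gene's own decline was then included.

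At time 0 under oxidative stress 2 members were called as deposited, 1 without the filter and 3 with a trend, beside 148 genes in the reported setting and 488, 340 and 334 in these (88 after quantile normalization). Under DNA damage a trend called 6 members, quantile normalization left 8 of 10 below 0, and gene counts went from 71 to 234 as deposited, 27 after quantile normalization, 198 without the filter, 505 with a trend, and 43 and 41 with 1 technical array. Between the stresses 4 members were called as deposited and 4 with a trend, and 4 genes became 324, 1, 58, 2 and 194 (deposited, quantile, no filter, stricter filter, trend). The median of all genes moved from -0.090 to 0.29 for oxidative stress, and from 0.051 to 0.49 between the stresses, without centring.

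For the slope from 0 to 30 min under DNA damage, 1 member was called as deposited, 1 without the filter, 3 with a trend and 3 over 0 to 20 min. Between the stresses 1 was called as deposited, 2 with a trend and 2 over 0 to 20 min, with 72, 150 and 353 genes called. For oxidative stress 16, 21 and 62 genes were called in these settings. In the early change under DNA damage 1 member was called over 0 to 10 min, beside 312 of 3899 genes. The cause of these changes was not tested. Leaving out a culture called 2 to 3 members in the slope from 5 to 30 min, and 398 genes without reference 1 and 707 without oxidative stress against 1251. It called 805, 892 and 808 genes in the early change without reference 1, reference 2 and oxidative stress against 1298. No paired analysis was possible because the cultures carry no replicate numbers that pair them. With 1 culture per stress, the spread between cultures limits every comparison.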
